A study of Mus musculus with 16 samples.

Results

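The 10 genes described here encode the major histocompatibility complex (MHC) class I antigen-presenting machinery: the light chain B2m, the heavy chains H2-K1, H2-D1, H2-Q4, H2-T22 and H2-T23, the peptide-loading genes Tap1, Tap2 and Tapbp, and the transactivator Nlrc5. They were taken by name as 10 of the 39057 rows of the count table, and all 10 passed the filter on low counts that kept 12481 genes. Primary brain endothelial cells were cultured from the cerebral cortex of targeted replacement mice that carry human *APOE3* or *APOE4* at the mouse *Apoe* locus, under the mouse promoter. The 16 libraries comprised 8 per genotype, 4 from males and 4 from females, and the labels give 1 brain per culture well, from animals aged 21 to 28 days. All cultures of both genotypes had been selected with 8 µg/ml puromycin, grown to confluence without passage, and left otherwise untreated. The data address whether *APOE* genotype is accompanied by a different level of class I transcripts in untreated brain endothelial cells. The replacement is not restricted to endothelium, so each cell type of the donor animals carried it.

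MHC class I molecules display short peptides from inside a cell to CD8+ T cells and are read by natural killer cells. Proteasomes cut proteins into peptides, the Tap1-Tap2 transporter carries these into the endoplasmic reticulum, and tapasin (Tapbp) holds an empty heavy chain beside the transporter until a peptide binds. The heavy chain reaches the cell surface only when paired with B2m. Nlrc5 acts with factors bound to short upstream boxes in class I promoters, and interferons raise the whole set. In the healthy brain, endothelium is among the cells with the most class I, whereas neurons show little.

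Upstream sequences of some members are given as a description, and their relation to the levels of these genes was not tested. RefSeq promoter windows (GRCm38.p6) were at hand for 8 of the 10 members, and the 250 bases before each start were searched on both strands for 4 motifs. TGACG, the core letters of an X2 box, was found in 6 of these members and in 17.8% of all 32851 promoters. CCAAT, the core of the Y box, occurred in all 8 and in 33.9% of promoters. GGGNNTTCC, a form of the kappaB site bound by NF-kB, was present in H2-K1, H2-D1 and H2-Q4 and in 4.98% of promoters. A short form of the interferon-stimulated response element, a pair of GAAA 2 bases apart, was present in B2m, H2-T22 and H2-T23 and in 2.98% of promoters. Each search required these exact letters, so a gene without a match can still hold a variant of the site. The stretches below run 5′ to 3′ on the gene's own strand, with matches in capitals (CCAAT appears as ATTGG where it lies on the other strand). They are H2-K1 at chr17:34000355-34000462 (minus strand), H2-Q4 at chr17:35379440-35379570 (plus strand), B2m at chr2:122147544-122147642 (plus strand), H2-T22 at chr17:36042756-36042947 (minus strand), and 30 bases around the kappaB match of H2-D1 at chr17:35262923-35262952 (plus strand), which GENCODE places within the first exon of the longest H2-D1 transcript.
H2-K1: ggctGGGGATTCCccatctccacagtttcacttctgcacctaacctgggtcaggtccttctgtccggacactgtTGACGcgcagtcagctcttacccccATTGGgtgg
H2-D1: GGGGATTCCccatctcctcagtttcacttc
H2-Q4: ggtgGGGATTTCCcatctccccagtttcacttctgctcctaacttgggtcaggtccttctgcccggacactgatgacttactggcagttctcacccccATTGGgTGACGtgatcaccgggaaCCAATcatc
B2m: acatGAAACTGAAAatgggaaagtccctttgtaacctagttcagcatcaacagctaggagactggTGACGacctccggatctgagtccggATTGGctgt
H2-T22: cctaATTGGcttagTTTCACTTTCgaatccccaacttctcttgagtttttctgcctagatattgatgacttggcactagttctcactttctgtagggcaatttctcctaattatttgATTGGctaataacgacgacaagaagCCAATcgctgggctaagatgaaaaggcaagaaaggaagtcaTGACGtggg
The windows of H2-K1, H2-D1 and H2-Q4 also share runs without a mismatch, among them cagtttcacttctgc (15 bases, just after the kappaB match) and tgggtcaggtccttctg (17 bases). The run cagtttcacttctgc holds tttcactt, the letters with which the H2-T22 match to the response element begins. In H2-K1, H2-D1 and B2m the TGACG match lies 5′ of an ATTGG match, as X2 and Y boxes are ordered, whereas in H2-Q4 and H2-T22 it lies 3′ of ATTGG and in Tap1 3′ of CCAAT, so there it is a match of letters outside that order. The letters tgatgact, which the search did not count, lie 5′ of an ATTGG match in both H2-Q4 and H2-T22. All matches describe letters only, and no binding was measured here.

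Total counts on genes ranged from 12717847 to 18624417 per library, and log2 totals did not separate the genotypes (two-sided exact permutation test, p = 0.758, 0.780 adjusted over the 7 library measures compared). Endothelial identity was clear: the 20 brain endothelial markers summed to between 23712 and 26294 CPM (counts scaled to a common normalized library size) in every library. Of the 18 microglia and macrophage markers, 12 were at or under 3 counts in every library, 8 of them at 0 (P2ry12, Itgam, Tyrobp, Trem2, C1qa, C1qc, Ctss and Fcrls), and the list summed to 8.05 to 10.55 CPM in *APOE3* and 7.24 to 10.39 CPM in *APOE4* libraries. Of 11 lymphocyte markers, 7 were at 0 throughout (Cd3e, Cd3g, Cd8a, Cd4, Nkg7, Gzmb and Ncr1), and the list summed to 0.867 to 2.82 and 0.477 to 2.01 CPM. The highest counts in these lists were 118 for Cd68, 48 for Mrc1 and 36 for Cd79a. Of the pericyte, fibroblast, astrocyte, oligodendrocyte and neuron markers, only 7, 4, 2, 1 and 3 had enough counts to be tested. None passed the genotype test described below. In edgeR 1, 1, 2, 1 and 2 of them had an unadjusted p under 0.05, as 3617 of 12481 genes did. So few genes cannot show whether these cell types differed in number between genotypes. Pericyte markers summed to 188 to 354 CPM in *APOE3* and 223 to 340 CPM in *APOE4* libraries. In bulk cultures, a change in the number of cells that express a gene and a change in RNA per cell cannot be told apart.

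Of the 10 members, 3 rose in *APOE4* cultures: B2m by 1.25-fold, H2-Q4 by 1.25-fold and Nlrc5 by 1.67-fold, and no member fell. Among all 12481 genes tested, 6.71% were higher and 6.09% lower at an adjusted p under 0.05 (quasi-likelihood test of edgeR, Benjamini-Hochberg over the whole table, as for each adjusted p below unless another test is named, and log2 fold changes are given ± SE). The median log2 fold change (*APOE4* over *APOE3*) was 0.08 over the 10 members, with 7 above 0, and -0.00022 over all genes. No member had every *APOE4* library above every *APOE3* library, which 0.256% of genes had. The calls of B2m, H2-Q4 and Nlrc5 held in all 16 fits that each left out 1 library and under 8 of 9 other settings. The exception was a fit with the mean log2 CPM of 30 cell cycle genes as a covariate, in which 0 genes of the whole table passed (894 had an unadjusted p under 0.05). In that edgeR fit the log2 fold change was 0.28 for B2m (adjusted p = 0.479), 0.23 for H2-Q4 (adjusted p = 0.634) and 0.64 for Nlrc5 (adjusted p = 0.519), with unadjusted p under 0.05 for all 3 genes. Mean scores were 5.54 ± 0.351 for *APOE3* and 6.13 ± 0.269 for *APOE4* (SD, n = 8; exact permutation test, p = 0.00140, 0.00979 adjusted over 7 measures), and its part in the class I differences was not tested further.

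B2m (ENSMUSG00000060802.8, chr2:122147686-122153083) encodes the light chain shared by all class I heavy chains. Its level ran from 422 to 508 CPM in *APOE3* libraries (median 483) and from 486 to 669 CPM in *APOE4* libraries (median 601). Each of the 8 *APOE4* values exceeded the *APOE3* median, and 7 exceeded the highest *APOE3* value, replicate 38 being the exception. The means were 474 ± 32.0 and 593 ± 55.5 CPM (n = 8 each), a log2 fold change of 0.32 ± 0.0549 (adjusted p = 0.00448), which ranked 24 among all genes by p. Leaving out single libraries moved the log2 fold change between 0.30 and 0.36. None of the 50-base stretches of its transcripts occurred in another annotated gene.

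The classical heavy chains H2-K1 and H2-D1 present peptides to CD8+ T cells. H2-K1 (ENSMUSG00000061232.15, chr17:33996017-34000347) ran from 368 to 463 CPM (median 409) in *APOE3* and from 356 to 558 CPM (median 458) in *APOE4* libraries. Of the *APOE4* libraries, 7 of 8 were above the *APOE3* median, but replicate 38 held the lowest value of either genotype. The log2 fold change was 0.19 ± 0.0694 and missed the threshold (adjusted p = 0.0705). It passed in edgeR without *APOE4* replicate 38 (log2 fold change 0.24, adjusted p = 0.0137), without *APOE3* replicate 32 (0.22, adjusted p = 0.0472), and with all libraries in DESeq2's Wald test (0.19, adjusted p = 0.0494).

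H2-D1 (ENSMUSG00000073411.11, chr17:35262730-35267499) was the heavy chain with the most counts, 8112 to 12497 per library. It spanned 598 to 682 CPM (median 631) in *APOE3* and 562 to 772 CPM (median 696) in *APOE4* libraries, and 5 *APOE4* libraries exceeded the highest *APOE3* library. The log2 fold change of 0.10 ± 0.0503 (adjusted p = 0.187) did not pass, except without *APOE4* replicate 38 (0.14, adjusted p = 0.0353). The spread within *APOE4* was wider than within *APOE3* for both classical genes, with a coefficient of variation of 13.5% against 6.99% for H2-K1 and 9.52% against 4.32% for H2-D1.

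H2-Q4 (ENSMUSG00000035929.11, chr17:35379617-35385290), a nonclassical heavy chain gene of the Qa region known as Qb-1, rose with *APOE4*. Levels were 70.4 to 95.4 CPM (median 84.5) in *APOE3* and 78.9 to 121 CPM (median 108) in *APOE4* libraries. As for B2m, 7 *APOE4* values were above every *APOE3* value and that of replicate 38 was not. Means of 84.3 ± 8.45 and 105 ± 13.1 CPM gave a log2 fold change of 0.32 ± 0.0734 (adjusted p = 0.0110), and 0.37 without replicate 38 (adjusted p = 0.00419). Of its 50-base stretches, 36.4% occur in other annotated genes, 15.3% in the antisense gene Gm11131 and 9.68% in H2-Q6, so part of its reads could be assigned elsewhere or taken from these genes.

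The 2 members of the T region had values below 0. H2-T23 (ENSMUSG00000067212.8, chr17:36029773-36032855) encodes Qa-1, which presents leader peptides of other class I molecules to natural killer cell receptors. It ran from 40.8 to 59.9 CPM (median 51.4) in *APOE3* and from 36.9 to 48.8 CPM (median 45.8) in *APOE4* libraries, and each of the 8 *APOE4* values was under the *APOE3* median. The log2 fold change of -0.20 ± 0.0749 (adjusted p = 0.0751) missed the threshold, passed without *APOE3* replicate 31 (-0.24, adjusted p = 0.0199), and turned to 0.10 once the cell cycle score entered the fit. H2-T22 (ENSMUSG00000056116.18, chr17:36037128-36042747), a ligand of some gamma-delta T cells, ran from 39.5 to 45.2 CPM (median 41.0) and from 35.6 to 45.6 CPM (median 39.3). Its groups overlapped over most of their range (log2 fold change -0.09 ± 0.0512, adjusted p = 0.253). With the cell cycle score in the edgeR fit the log2 fold change of H2-T22 was -0.19 (unadjusted p = 0.00667, adjusted p = 0.556). Of its 50-base stretches, 31.3% also occur in H2-T10 and 26.6% in the antisense gene A930015D03Rik, and with the counts of H2-T22 and H2-T10 summed the log2 fold change was -0.07 (adjusted p = 0.394).

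None of the peptide-loading genes passed. Tap1 (ENSMUSG00000037321.17, chr17:34187553-34197225), a transporter subunit, measured 34.8 to 41.0 CPM (median 37.0) in *APOE3* and 33.7 to 42.5 CPM (median 36.8) in *APOE4* libraries. The log2 fold change was 0.01 ± 0.0509 (adjusted p = 0.912) and lay between -0.01 and 0.03 as single libraries were left out. Tap2 (ENSMUSG00000024339.12, chr17:34203527-34216321), its partner subunit, spanned only 103 to 107 CPM (median 105) in *APOE3* and 93.8 to 109 CPM (median 105) in *APOE4* libraries (log2 fold change -0.04 ± 0.0328, adjusted p = 0.497). With GC content and length corrected its log2 fold change was 0.0031, above 0. Tapbp (ENSMUSG00000024308.14, chr17:33915899-33929292) measured 287 to 319 CPM (median 309) and 299 to 334 CPM (median 313), where 7 of 8 *APOE4* values exceeded the *APOE3* median, and gave a log2 fold change of 0.05 ± 0.0313 (adjusted p = 0.316).

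Nlrc5 (ENSMUSG00000074151.13, chr8:94434356-94527272) showed the largest difference of the 10 genes and the lowest level. Counts were 58 to 218 per library. It ran from 3.89 to 7.81 CPM (median 6.78) in *APOE3* and from 7.24 to 13.5 CPM (median 11.1) in *APOE4* libraries. Again each *APOE4* value exceeded the *APOE3* median and 7 exceeded the highest *APOE3* value, with replicate 38 falling inside the *APOE3* range. Means of 6.61 ± 1.25 and 11.1 ± 2.02 CPM gave a log2 fold change of 0.74 ± 0.130 (adjusted p = 0.00542), with a range of 0.66 to 0.81 as single libraries were left out. Only 0.841% of all genes tested had a change of this size or more in either direction.

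**Figure D1:**
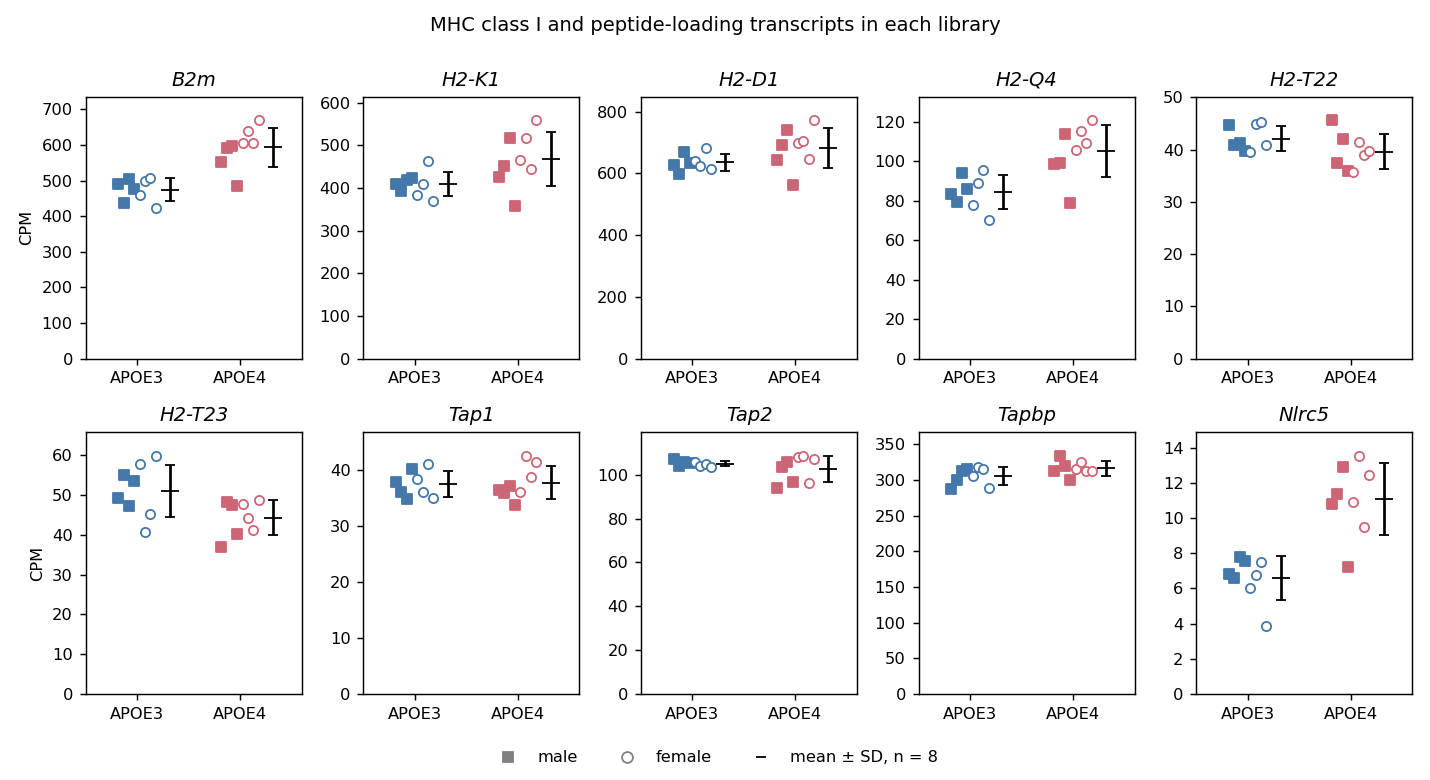
CPM of the 10 genes in each of the 16 libraries (filled squares, males; open circles, females), with the mean ± SD of 8 libraries per genotype beside the points. For B2m, H2-Q4 and Nlrc5, 7 of 8 *APOE4* libraries sit above all *APOE3* libraries, whereas Tap1, Tap2 and Tapbp overlap between genotypes.

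Between libraries, several class I genes shared their high and low libraries. *APOE4* replicate 38 was the lowest *APOE4* library for 7 of 10 members and *APOE4* replicate 43 the highest for 5. In *APOE3*, replicate 33 was lowest for 5 members and replicate 32 highest for 6. Together the 10 members took 0.202% to 0.231% of all counts in *APOE3* and 0.198% to 0.270% in *APOE4* libraries.

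Levels between genes are compared as CPM per kb of annotated exon. This length counts all annotated exons of a gene, from 860 bases for B2m to 8493 for Nlrc5, whichever transcripts the cells made. The order of genes and the ratios between them depend on it. In *APOE3* libraries the order was B2m (551 ± 37.3 CPM per kb), H2-D1 (247 ± 10.65), H2-K1 (139 ± 9.72), Tapbp (84.2 ± 3.34), H2-Q4 (32.5 ± 3.25), Tap2 (27.8 ± 0.354), H2-T23 (17.7 ± 2.28), H2-T22 (12.3 ± 0.710), Tap1 (6.83 ± 0.425) and Nlrc5 (0.778 ± 0.147). The order was the same in *APOE4* libraries. No neighbours in either order had overlapping mean ± SD ranges, and each gene exceeded the next in at least 7 of 8 libraries. H2-K1 and H2-D1 together made up 86.0% ± 0.267 of the CPM per kb of the 5 heavy chains in *APOE3* and 86.2% ± 0.350 in *APOE4* libraries, so the classical genes dominated in both. B2m stood at 1.43 ± 0.0550 times the CPM per kb of H2-K1 and H2-D1 together in *APOE3* and at 1.63 ± 0.0721 times in *APOE4* libraries, with ranges of 1.35 to 1.52 and 1.502 to 1.76. The ratio of light chain to classical heavy chain transcript was thus higher in *APOE4* on average, with a small overlap. Tap2 stood at 4.08 ± 0.236 and 3.95 ± 0.283 times Tap1, and these ranges overlapped (3.71 to 4.41 and 3.60 to 4.34). The ratios were chosen after the values were seen and were not tested.

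Of 26 other class I heavy chain genes listed, 22 were in the table and 7 passed the filter, while 13 were at or under 3 counts in every library. Among those tested, 4 had a log2 fold change above 0 (median 0.32) and 1 rose, H2-Q6, beside 6.71% of all genes. H2-Q6 (Qa-2 family) measured 1.92 to 9.93 CPM in *APOE4* against 2.08 to 5.21 CPM in *APOE3* libraries, with a log2 fold change of 0.85 ± 0.276 (adjusted p = 0.0472). The call held in 4 of the 16 fits that left out 1 library (adjusted p of 0.0154 to 0.0966), and H2-Q7, its closest relative by shared 50-base stretches, had 0.81 ± 0.290 (adjusted p = 0.0695). With their counts summed, the log2 fold change was 0.83 ± 0.271 (adjusted p = 0.0486). Per kb, the 7 tested genes were below each of the 5 member heavy chains, from 0.402 CPM per kb for H2-M5 to 9.12 CPM per kb for H2-M3 in *APOE3* libraries, and H2-M5 had a log2 fold change of -1.01 ± 0.341 (adjusted p = 0.0558).

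Upstream of the transporter, the immunoproteasome replaces catalytic proteasome subunits under interferon. Of its 3 subunits and the 2 PA28 activator genes, all 5 had positive log2 fold changes and 1 passed, Psmb9. Of all genes, 49.9% were above 0 and 6.71% were called higher. Psmb9 (ENSMUSG00000096727.2, chr17:34181987-34187764) ran from 10.7 to 14.4 CPM in *APOE3* and from 14.4 to 17.7 CPM in *APOE4* libraries. Each *APOE4* library was above each *APOE3* library, beside 0.256% of all genes, although the nearest values were 14.36 and 14.41. Its log2 fold change was 0.36 ± 0.0747 (adjusted p = 0.00802), and the call held in all 16 fits that left out 1 library. With the cell cycle score in the edgeR fit its log2 fold change was 0.25 (unadjusted p = 0.0234, adjusted p = 0.630). No gene of the whole table passed in that fit. Psmb9 and Tap1 are transcribed from a shared region in opposite directions and overlap over 212 exonic bases, yet Tap1 had 0.01. Of the 3 constitutive counterparts (Psmb5, Psmb6 and Psmb7), none passed.

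A list of 14 genes covered class I folding, assembly and peptide trimming, and also Sppl3, Susd6, Tmem127 and Wwp2, which act on class I at other steps. Of these 14 genes 2 passed and both rose, beside 6.71% of all genes. Pdia3, the oxidoreductase ERp57 of the loading complex, went from 359 ± 13.5 to 403 ± 21.2 CPM (log2 fold change 0.17 ± 0.0356, adjusted p = 0.00824) and was above the *APOE3* median in 8 of 8 *APOE4* libraries, with 0.07 once the cell cycle score entered the fit (adjusted p = 0.733). Uggt1, the glycoprotein glucosyltransferase that returns unloaded class I for another round, had 0.13 ± 0.0391 (adjusted p = 0.0367), with the call held in 8 of 16 fits without 1 library and a value of -0.0032 once that score entered the fit. Calr, Canx, Erap1 and the other 9 did not pass, and the list median was 0.04.

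Of 15 genes of class I transcription, 1 rose and 3 fell, beside 6.71% and 6.09% of all genes. Those that fell were Rfxap (-0.21 ± 0.0654, adjusted p = 0.0426) and Rfxank (-0.19 ± 0.0535, adjusted p = 0.0264), both subunits of the RFX complex that holds Nlrc5 at class I promoters, and Nfkb1 (-0.12 ± 0.0329, adjusted p = 0.0251), the p50 subunit of NF-kB. The call of Rfxap held in 4 of 16 fits without 1 library, that of Rfxank in 14 and that of Nfkb1 in 12. Ezh2, the histone methyltransferase of the repressive Polycomb complex, rose (0.33 ± 0.0991, adjusted p = 0.0363), a call kept in 9 of 16 such fits, and had -0.0069 with the cell cycle score in the fit. In that fit Nfkb1 had -0.03, Rfxank -0.10 and Rfxap -0.17. With GC content and length corrected, Rfxank (adjusted p = 0.0522) and Ezh2 (0.0511) no longer passed. Thus the Nlrc5 transcript was higher while 2 transcripts of its promoter-bound partners were lower. The third RFX subunit, Rfx5, had 0.01 ± 0.0547 (adjusted p = 0.895).

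Interferons are the best-known inducers of this pathway. Of 31 tested interferon response genes outside the class I pathway, 25 were above 0, 7 rose and none fell, with a median of 0.10. Of all genes, 49.9% were above 0, 6.71% rose and 6.09% fell. The largest were Oas1a (0.75 ± 0.201, adjusted p = 0.0203), Tgtp1 (0.60 ± 0.190, adjusted p = 0.0437), Gbp3 (0.26 ± 0.0550, adjusted p = 0.00824) and Gbp5 (0.26 ± 0.0763, adjusted p = 0.0331). The calls of Oas1a and Gbp3 held in 16 of 16 fits without 1 library, those of Gbp5 in 8 and of Tgtp1 in 4. With the cell cycle score in the fit the log2 fold changes were 0.45 for Oas1a, 0.16 for Tgtp1, 0.13 for Gbp3 and 0.03 for Gbp5, and with GC content and length corrected Tgtp1 did not pass (adjusted p = 0.0554).

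**Figure D2:**
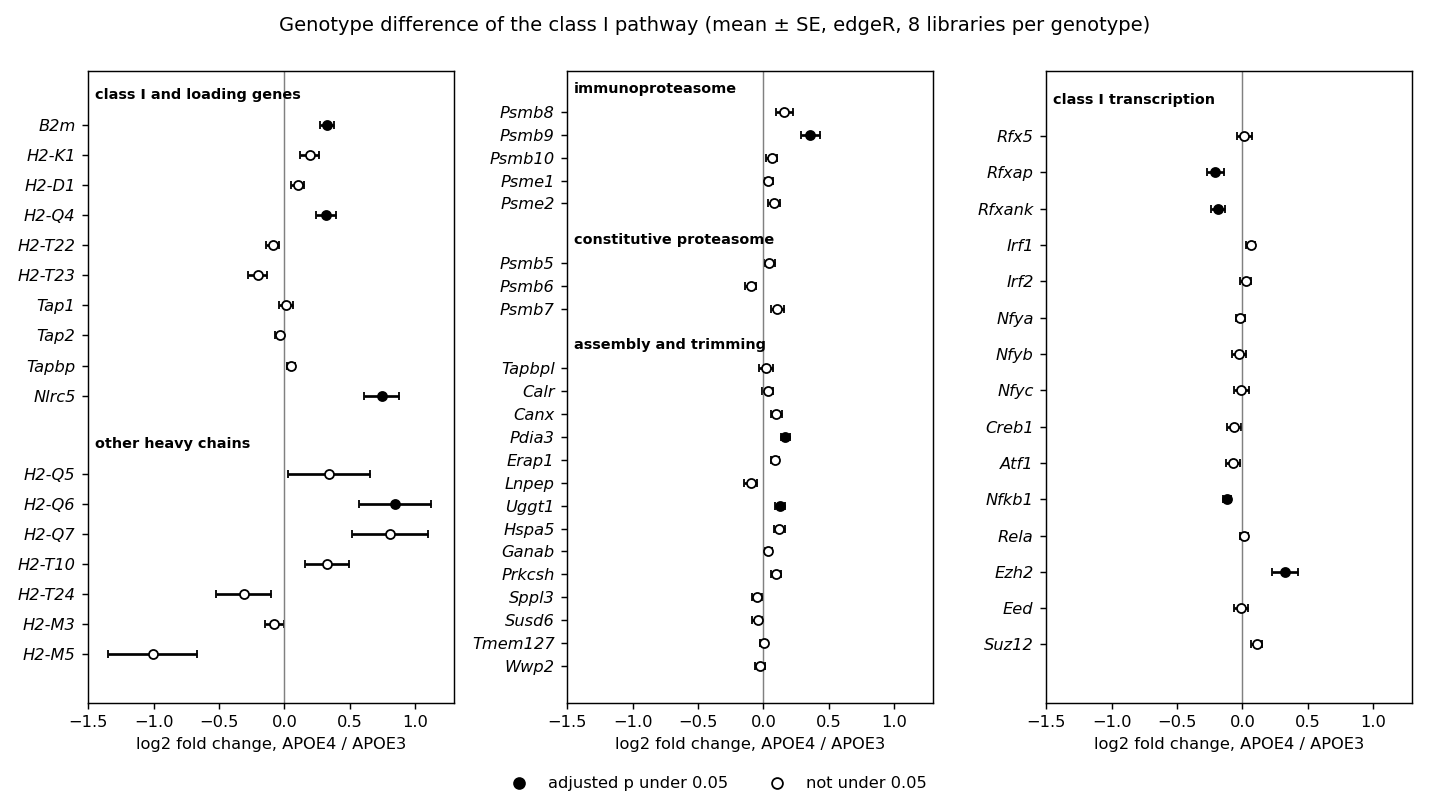
Log2 fold change (*APOE4* over *APOE3*) ± SE from the edgeR fit over 8 libraries per genotype, for the 10 genes and the tested genes of 5 related lists; filled points have an adjusted p under 0.05. B2m, H2-Q4 and Nlrc5 among the 10 genes, and H2-Q6 and Psmb9 beside them, lie to the right of 0 with filled points.

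Within each sex, 4 *APOE4* libraries were compared with 4 *APOE3* libraries. In males 0% of genes were higher at an adjusted p under 0.05 (1775 of 12481 had an unadjusted p under 0.05 in edgeR, in either direction), and in females 0% as well (2428 unadjusted), so no member could be called in either. B2m had a log2 fold change of 0.22 ± 0.0698 (adjusted p = 0.217) in males and 0.42 ± 0.0698 (adjusted p = 0.0554) in females. In CPM, female *APOE3* libraries ran from 422 to 508 and female *APOE4* libraries from 605 to 669. Male libraries ran from 438 to 504 and from 486 to 598, with replicate 38 the lowest of the male *APOE4* libraries. How many of all genes separate 4 libraries from 4 was not counted, so these ranges are given as values only. H2-Q4 had 0.19 ± 0.0979 in males and 0.44 ± 0.0976 (adjusted p = 0.0608) in females, and Nlrc5 0.56 ± 0.182 and 0.94 ± 0.185 (adjusted p = 0.0608). All 3 genes passed in females when *APOE3* replicate 31 (adjusted p of 0.0123 to 0.0169, with 879 genes called), *APOE3* replicate 32 (0.0417 to 0.0435, 55 genes) or *APOE4* replicate 35, a male library that enters the shared spread (0.0278 to 0.0413, 261 genes) was left out. Without *APOE4* replicate 38, also male, B2m passed (adjusted p = 0.0372) as the 1 gene called.

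The difference between the sexes was tested itself. For 8 of 10 members the female effect was above the male effect, by 0.20 ± 0.0986 for B2m, 0.25 ± 0.138 for H2-Q4 and 0.38 ± 0.260 for Nlrc5, and no member passed (edgeR adjusted p = 1.00 for each) or had an unadjusted p under 0.05. Over all genes, 0% passed this interaction in edgeR (345 unadjusted) and 0 in DESeq2. Comparing females with males over both genotypes called 0.0721% of genes and no member, and the members' log2 differences between females and males lay between -0.06 and 0.08.

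**Figure D3:**
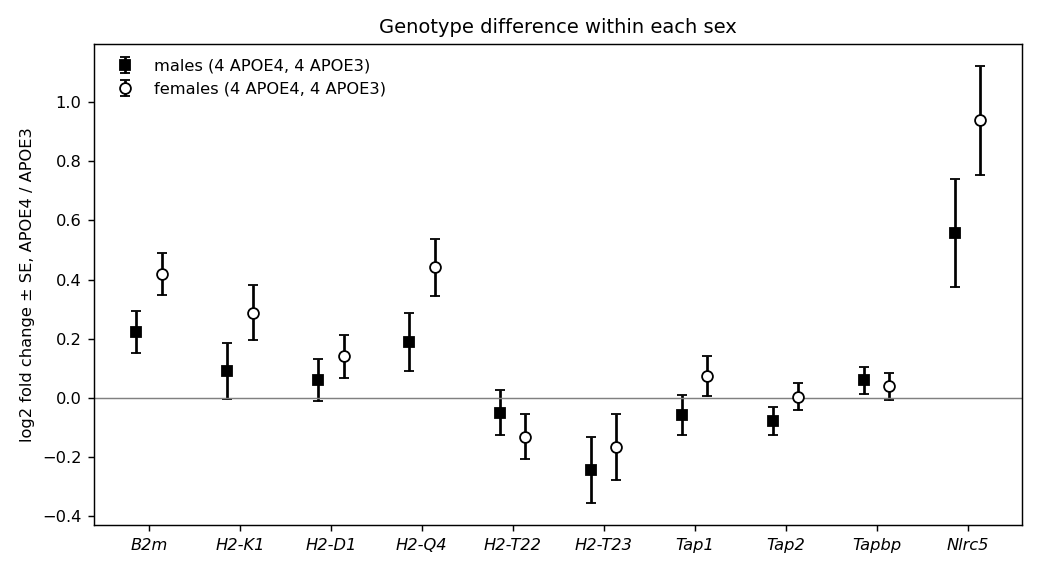
Log2 fold change (*APOE4* over *APOE3*) ± SE of the 10 genes within males (filled squares) and within females (open circles), fitted in edgeR with 4 libraries per genotype and sex. The female point lies above the male point for 8 of 10 genes, and the error bars of B2m in both sexes lie above 0.

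Across the 16 libraries, with log2 CPM centred within genotype, most of the class I genes varied together. These correlations are descriptions, since the points share library preparation and composition. The median Pearson r over the 45 pairs of members was 0.52, with 39 above 0. B2m and H2-Q4 had r = 0.95, H2-K1 and H2-D1 0.93, H2-K1 and H2-Q4 0.93, and H2-K1 and B2m 0.90, although B2m lies on another chromosome and shares no 50-base stretch with them. Tap1 followed H2-K1 at 0.73, whereas Tapbp and Tap2 had 0.50 and 0.68. The T-region genes stood outside the set, with r from -0.55 to 0.43 for H2-T22 and from -0.55 to 0.52 for H2-T23 with the other members. Their r with the cell cycle score was 0.52 for H2-T22 and -0.92 for H2-T23 over 16 libraries, and for H2-T23 -0.94 within *APOE3* and -0.88 within *APOE4*. For B2m, H2-Q4 and Nlrc5, r with that score was 0.77, 0.82 and 0.70 within *APOE3* and -0.34, -0.19 and -0.30 within *APOE4* libraries.

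The relation of Nlrc5 to the other 9 members was computed within each genotype, giving 18 correlations over 8 libraries each. In *APOE4* libraries Nlrc5 correlated with H2-K1 (Pearson r = 0.91, two-sided exact permutation p = 0.00236, adjusted 0.0210; Spearman rho = 0.88, permutation p = 0.00724), H2-D1 (r = 0.91, p = 0.00350, adjusted 0.0210, exact permutation test; rho = 0.86, p = 0.0107) and H2-Q4 (r = 0.86, p = 0.0135, adjusted 0.0488, exact permutation test; rho = 0.76, p = 0.0368). Without replicates 38 and 40, the libraries farthest from the Nlrc5 median, r was 0.77, 0.86 and 0.45. These values cover 6 libraries with a narrower range of Nlrc5, which by itself can lower r, and were not tested. In *APOE3* libraries it correlated with H2-Q4 (r = 0.88, p = 0.00131, adjusted 0.0210, exact permutation test; rho = 0.83, p = 0.0154) and B2m (r = 0.81, p = 0.00796, adjusted 0.0358, exact permutation test; rho = 0.76, p = 0.0368). Without replicates 27 and 33, r was 0.79 and 0.57, again over 6 libraries and not tested. For H2-K1 in *APOE3* libraries r was 0.79 (adjusted exact permutation p = 0.0636), and 0.87 without those 2 replicates. No Spearman correlation passed adjustment over the 18 (lowest adjusted permutation p = 0.0643). With H2-T23, r was -0.61 in *APOE3* and 0.54 in *APOE4* libraries (adjusted exact permutation p = 0.139 and 0.233).

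**Figure D4:**
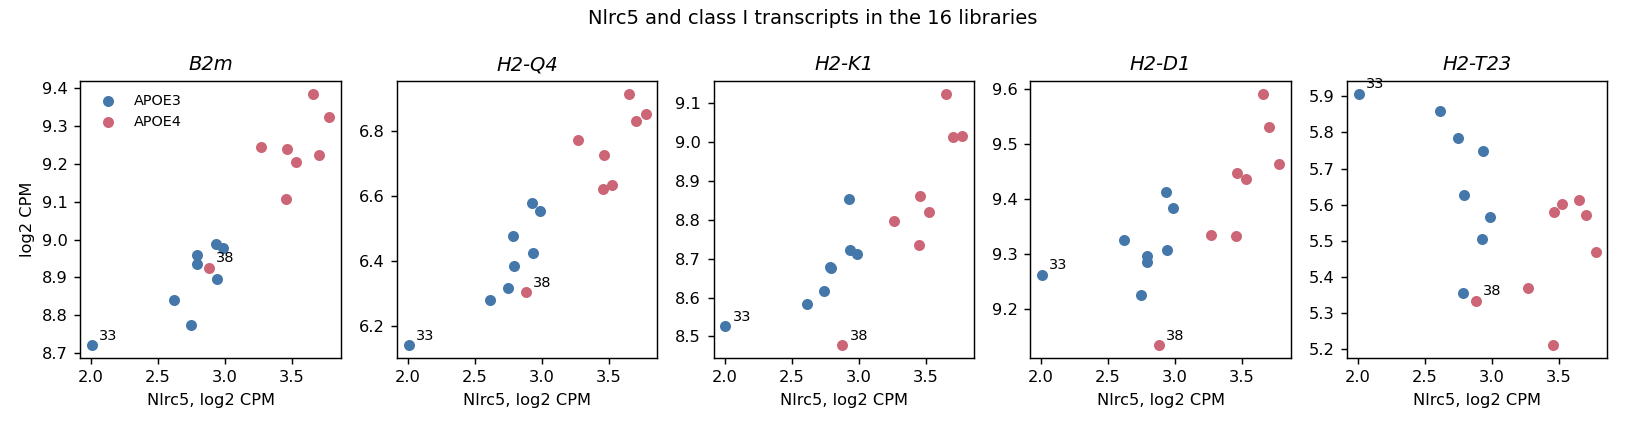
Log2 CPM of B2m, H2-Q4, H2-K1, H2-D1 and H2-T23 (vertical axes) against log2 CPM of Nlrc5 (horizontal axis) in 8 *APOE3* and 8 *APOE4* libraries, with *APOE3* replicate 33 and *APOE4* replicate 38 numbered. Within *APOE4*, r was 0.91 for H2-K1 and 0.54 for H2-T23, and within *APOE3* 0.79 and -0.61.

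Outside the 10 genes, the log2 CPM most like that of Nlrc5, centred within genotype over 16 libraries, belonged to Lrg1 (r = 0.81), 9130208D14Rik (0.79), Ifitm3 (0.78), Coro2a (0.78) and Cdkn2a (0.77). The middle 90% of all tested genes lay between -0.42 and 0.44. For B2m the closest were H2-Q6 (0.90), Alpl (0.85), H2-Q7 (0.85), Reck (0.84) and Pla2g16 (0.84), and the middle 90% lay between -0.45 and 0.47. Both Qa-2 heavy chain genes were thus among the 5 genes closest to the light chain.

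The 8 members other than B2m and Nlrc5 lie in the MHC region of chromosome 17, here taken as chr17:33915899-37483552 (3.57 Mb). In this region 1 of 8 members was called higher, beside 1 of 7 other heavy chain genes and 1 of 2 immunoproteasome genes. Of the 85 other tested genes, 3 were called higher (Tcf19, Ier3 and Mdc1, named after their values were seen) and 8 lower, beside 6.71% and 6.09% of all genes, and their median was -0.04 on the log2 scale. The genes called higher were not all adjacent. Psmb9 lies 0.185 Mb from the H2-K1 start, and H2-Q4, H2-Q6 and Tcf19 lie 1.38, 1.43 and 1.51 Mb away. Ier3 and Mdc1 lie at 1.82 and 1.85 Mb. Tap1, Tap2 and H2-D1, which did not pass, lie between Psmb9 and H2-Q4. Each tested gene from Ddx39b at 1.25 Mb to Psors1c2 at 1.53 Mb had a log2 fold change above 0. Of all genes, 49.9% were above 0. The ends of this run were chosen after the values were seen, and the run was not tested. Within it only H2-Q4, H2-Q6 and Tcf19 passed, and the heavy chain genes in it share 50-base stretches with other genes.

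**Figure D5:**
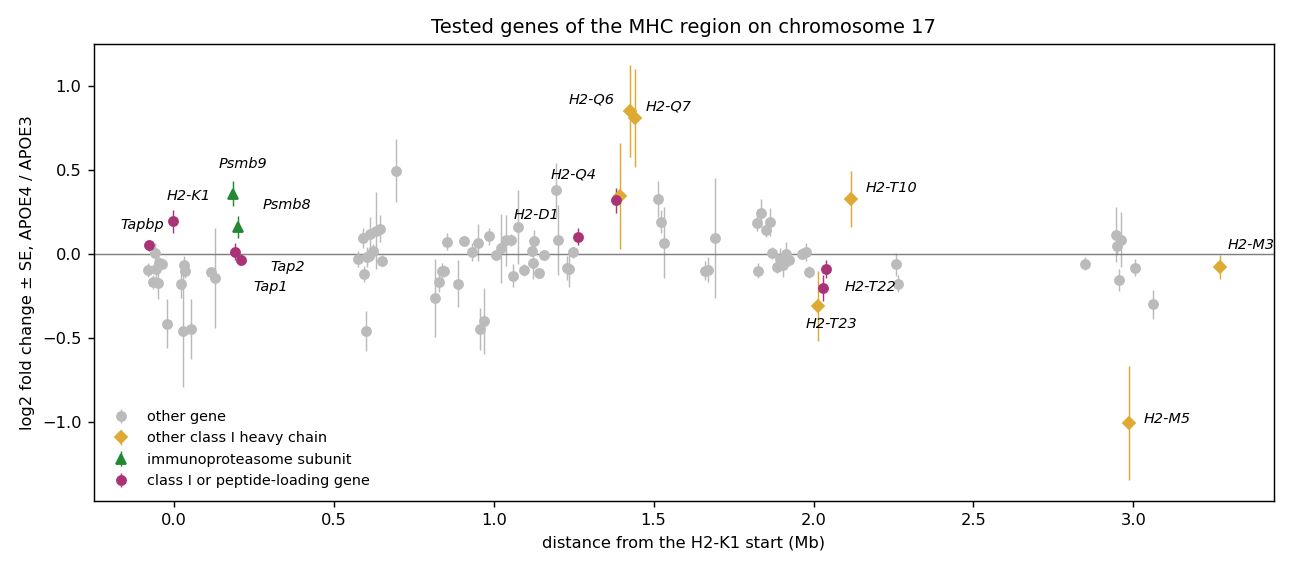
Log2 fold change (*APOE4* over *APOE3*) ± SE of each tested gene of the MHC region, plotted at the distance of its midpoint from the H2-K1 start in Mb. Psmb9, H2-Q4 and H2-Q6 lie above 0, while Tap1 and Tap2, next to Psmb9, lie near 0, and H2-T22 and H2-T23 lie below it.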

How the data were processed

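The authors deposited raw counts, whole numbers of reads per gene without normalization, in 1 table whose 16 columns were mapped to libraries by their labels (0 left unmapped). The submitters' processing notes name STAR, featureCounts, mm10 and hg38. Versions, annotation release and strand setting are not given in the sources used here, so reads of a gene and an antisense neighbour may be mixed. Libraries of poly-A RNA (100 ng input, 17 PCR cycles) were read as 50 nt pairs. Reads carried no molecular identifiers, and counts at or under 3 were taken as the floor.

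Counts were fitted with edgeR 4.0.16 in R 4.3.3 (filterByExpr by genotype, TMM, genotype as the single term, quasi-likelihood F test, Benjamini-Hochberg over 12481 genes, threshold 0.05). SE is the log2 fold change divided by the square root of F. CPM used normalized library sizes, and log2 CPM a prior count of 2. Effects within sexes came from 1 fit of 4 groups. Library measures were compared over all 12870 assignments of libraries, and correlations over all 40320 pairings. DESeq2 1.42.0 and limma 3.58.1 gave alternatives, and Python 3.11.15 with matplotlib 3.10.9 the figures. Alternatives were RLE size factors, DESeq2, limma voom with quality weights, 2 other filters, sex or the cell cycle score as a covariate, GC content and length corrected by splines with 5 degrees of freedom, paralogs summed, and each library left out. Leaving out libraries for the effects within sexes was chosen after the data had been seen. The fits were tested on simulated data.

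Symbols, positions and exon lengths are from GENCODE mouse release 21 (GRCm38), matched on identifiers without version for 38872 of 39056 mouse rows, and promoter sequences from RefSeq. The members and gene lists were chosen with earlier results of these data known. Genes named from a list are up to 4 called genes with the largest change, single exceptions to a count, and the 5 genes closest to Nlrc5 and to B2m. Library numbers are the animals' numbers in the labels and do not pair the genotypes. Other assays of the study were not analysed here. Another gene list is not reported here.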

Additional observations from a re-analysis of the deposited data

Results flagged for a closer look

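Nlrc5 in *APOE3* replicate 33, a female library, stood apart at 3.89 CPM, with the next lowest *APOE3* library at 6.00 CPM. This gap was 0.540 of the whole range of the 8 *APOE3* libraries, above the critical value of Dixon's test for 8 values. It was the only flag among 20 groups searched (10 genes in 2 genotypes), where chance gives about 1 in 20. Without this library the log2 fold change of Nlrc5 was 0.66 (edgeR adjusted p = 0.0105). The library was also the lowest *APOE3* library for 5 of the 10 members and had the lowest cell cycle score of all 16, 5.04. No member passed the test of a difference in genotype effect between the sexes.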

How the results depend on the processing

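The count of all genes called was 1597 and that of members called 3. With the cell cycle score added as a term both were 0, and H2-T23 turned to 0.10, Tap2 to 0.013, Slco1c1 to 0.089, Uggt1 to -0.0032 and Ezh2 to -0.0069 on the log2 scale. Tap2 was 0.0031 with GC content and length corrected, and Tap1 lay between -0.014 and 0.033 without single libraries (-0.0027 without *APOE3* replicate 27, -0.0015 without *APOE3* replicate 33, -0.014 without *APOE4* replicate 40 and -0.0085 without *APOE4* replicate 43). The cause was not tested. Leaving out 1 library gave 846 to 2127 genes (lowest without *APOE4* replicate 41, *APOE3* replicate 30 with 853 and *APOE3* replicate 33 with 952), 3 to 5 members, 0 to 1 genes within males, 0 to 879 within females, 0 for the interaction and 9 to 10 for sex. Under the other 8 settings the counts were 1290 to 1951 genes and 3 to 4 members. Depth limits Nlrc5 and H2-Q6, with 58 and 28 counts in their lowest libraries, and reads shared between heavy chain genes limit H2-Q4, H2-T22, H2-Q6 and H2-Q7.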

Other observations

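Class I-like molecules, which share the fold but not the peptide, were measured beside the members. Of 5 tested, 1 passed, Fcgrt, beside 6.09% of all genes called lower. Fcgrt fell by 0.17 on the log2 scale (SE 0.0535, edgeR adjusted p = 0.0382, 168 against 149 CPM on average), a call kept in 7 of 16 fits without 1 library (adjusted p of 0.0222 to 0.0869). The call was lost with GC content and length corrected (-0.15, adjusted p = 0.0710), and the value was -0.07 with the cell cycle score in the fit. Fcgrt encodes the neonatal Fc receptor, which pairs with B2m to carry immunoglobulin G and albumin.

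Of 11 tested ligands of T cell and natural killer cell receptors, 2 rose and none fell, beside 6.71% and 6.09% of all genes. Both, Ulbp1 (log2 fold change 0.45, SE 0.112, edgeR adjusted p = 0.0149, from 74.9 to 102 CPM) and Raet1d (0.40, SE 0.0971, edgeR adjusted p = 0.0138), encode ligands of the activating receptor NKG2D, and both calls held in 16 of 16 fits without 1 library. Once the cell cycle score entered the fit, the values were 0.0063 and 0.17. Of 11 MHC class II genes, 1 passed the filter on low counts, H2-DMa (log2 fold change -0.15, SE 0.297, adjusted p = 0.795), and the list summed to 1.45 to 2.54 CPM in *APOE3* and 1.12 to 2.43 CPM in *APOE4* libraries. Its transactivator Ciita was at or under 3 counts in every library.

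Brain endothelial markers had 1 gene that rose, Emcn (0.14, SE 0.0324, edgeR adjusted p = 0.0106), and 1 that fell, Slco1c1 (-0.31, SE 0.100, adjusted p = 0.0472), of 20 tested, beside 6.71% and 6.09% of all genes. The call of Slco1c1 held in 6 of 16 fits without 1 library (adjusted p of 0.0177 to 0.108). That of Emcn held in 16 but was lost with GC content and length corrected (0.10, adjusted p = 0.0523). Of 30 cell cycle genes, 27 rose, beside 6.71% of all genes, with a median of 0.65, the largest being Hmmr (0.86), Cenpe (0.82), Ccnb2 (0.82) and Cenpf (0.79).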
